A study of Mus musculus with 102 samples.

Results

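The loci of the 3 TET genes, Tet1, Tet2 and Tet3, were examined in mouse embryonic stem cells from the CpGs that SureSelect capture followed by bisulfite sequencing had covered. All measured CpGs inside a fixed window around each gene were taken, which in the mm9 assembly were chr10:62260000-62370000 for Tet1, chr3:133120000-133215000 for Tet2 and chr6:83305000-83400000 for Tet3. They held 202 CpGs at Tet1, 163 at Tet2 and 155 at Tet3, or 520 of the 2177608 CpGs of the capture table. A methylation level is the percentage of reads on a CpG that kept a cytosine after bisulfite treatment.

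The groups were wild-type cells at day 0, TTKO cells at day 0, and TTKO cells collected at 6 later time points up to day 29 after transduction with Cre protein (days 4, 8, 10, 13, 17 and 29). Wild-type here names the parental line of C57BL6/J background, which has TET proteins and in which both Dnmt3a and Dnmt3b are floxed. The TTKO line is 1 clone derived from it, in which CRISPR guides against the catalytic exons were used to mutate every allele of Tet1, Tet2 and Tet3. Cre then removes Dnmt3a and Dnmt3b in the TTKO cells, whereas the day 0 cells of both lines were not transduced and kept both enzymes. Cells were kept on feeders up to transduction and moved off them soon after it. The 3 replicates of each group were joined by the authors into 1 column per group, 8 columns in all, so the tests below compare pooled libraries and carry no spread between replicates. Columns held from 421283985 (day 8) to 740590811 (day 17) reads on CpGs, and the median CpG had 152 reads in the former and 269 in the latter. All intervals cover counting error alone.

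TET proteins oxidise methylcytosine to hydroxymethylcytosine and further, and the oxidised bases are lost either at replication or by base excision. Their catalytic domain sits at the C-terminal end, which the 3′ coding exons encode. In embryonic stem cells Tet1 and Tet2 are the main members, while Tet3 is best known from the oocyte and zygote. New methylation is placed by DNMT3A and DNMT3B and kept at replication by DNMT1 with UHRF1.

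All 3 genes are annotated on the minus strand in GENCODE M1, Tet1 at chr10:62267318-62361866, Tet2 at chr3:133126643-133207354 and Tet3 at chr6:83312367-83391672. The Tet3 window also held the end of Bola3 and the start of the noncoding RNA B230319C09Rik, which is transcribed away from Tet3. Sequences of 5 stretches are shown to place the CpGs described below, each on the minus strand from 5′ to 3′ with the measured CpGs in capitals. The stretches are an intron of Tet1 just upstream of the start of the noncoding transcript Tet1-002 (chr10:62328343-62328642, 15 CpGs), an unmethylated intron of Tet1 (chr10:62349552-62349851, 27 CpGs), an intron of Tet2 (chr3:133198596-133198895, 6 CpGs), an intron of Tet3 (chr6:83373787-83374086, 5 CpGs) and the first coding exon of Tet3 (chr6:83354420-83354718, 21 CpGs).
Tet1 intron upstream of the Tet1-002 start: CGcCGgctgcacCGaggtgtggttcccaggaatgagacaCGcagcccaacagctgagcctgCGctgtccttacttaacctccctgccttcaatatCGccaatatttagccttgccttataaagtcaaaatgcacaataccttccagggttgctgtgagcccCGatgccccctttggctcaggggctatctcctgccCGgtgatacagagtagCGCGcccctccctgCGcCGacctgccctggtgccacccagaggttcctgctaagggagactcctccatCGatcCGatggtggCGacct
Tet1 intron, unmethylated: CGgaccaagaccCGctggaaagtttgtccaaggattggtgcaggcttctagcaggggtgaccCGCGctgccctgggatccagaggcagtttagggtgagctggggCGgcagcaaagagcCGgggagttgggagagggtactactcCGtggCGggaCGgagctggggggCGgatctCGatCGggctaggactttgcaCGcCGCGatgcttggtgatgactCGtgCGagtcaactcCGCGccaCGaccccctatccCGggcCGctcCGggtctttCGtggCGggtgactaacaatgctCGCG
Tet2 intron: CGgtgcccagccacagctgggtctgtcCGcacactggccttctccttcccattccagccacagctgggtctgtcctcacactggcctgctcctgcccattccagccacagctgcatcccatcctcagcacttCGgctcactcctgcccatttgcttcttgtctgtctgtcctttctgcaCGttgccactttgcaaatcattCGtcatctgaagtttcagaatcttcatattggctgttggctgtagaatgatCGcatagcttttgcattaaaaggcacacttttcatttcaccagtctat
Tet3 intron: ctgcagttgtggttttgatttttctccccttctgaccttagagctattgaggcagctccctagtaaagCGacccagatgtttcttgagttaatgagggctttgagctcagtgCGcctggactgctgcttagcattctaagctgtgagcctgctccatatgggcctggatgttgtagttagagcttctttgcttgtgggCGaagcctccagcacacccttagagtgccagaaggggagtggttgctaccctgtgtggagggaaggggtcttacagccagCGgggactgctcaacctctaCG
Tet3 first coding exon: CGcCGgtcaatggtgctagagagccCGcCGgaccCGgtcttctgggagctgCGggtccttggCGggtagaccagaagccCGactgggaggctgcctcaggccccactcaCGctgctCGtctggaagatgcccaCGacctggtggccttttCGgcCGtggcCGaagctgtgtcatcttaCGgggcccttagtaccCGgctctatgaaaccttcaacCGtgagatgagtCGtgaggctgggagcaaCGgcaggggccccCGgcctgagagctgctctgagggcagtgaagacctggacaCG

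The first, the Tet2 intron and the Tet3 intron gained methylation without TET, with means over the CpGs printed of 5.26% in wild-type and 31.9% in TTKO cells, 11.0% and 45.1%, and 15.4% and 69.6%. The unmethylated Tet1 intron stayed at 1.74% and 1.99%. The Tet3 coding exon was methylated in both lines, at 81.4% and 87.5%. Of the 5 sequences printed, the 2 richest in CpGs, with 27 in 300 bases and 21 in 299 bases, were thus at opposite ends of the scale. Another CpG-rich part of Tet3, not printed, lay between them. It held 34 CpGs in 512 bases (chr6:83317957-83318468), with means of 37.2% in wild-type and 65.3% in TTKO cells.

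Methylation rose at all 3 loci in TTKO cells at day 0. The mean level over CpGs went from 12.2% in wild-type to 22.9% in TTKO cells at Tet1, from 14.1% to 24.7% at Tet2 and from 43.7% to 60.4% at Tet3. Over all CpGs of the capture table it went from 23.4% to 35.8%. The mean rises were 10.8 percentage points at Tet1, 10.6 at Tet2 and 16.7 at Tet3, against 12.4 in the table, and their 95% intervals from counting error reached 0.415, 0.442 and 0.728 points to either side. Tet3 was therefore the most methylated of the 3 in each line, and Tet1 and Tet2 lay below the table's mean. In a two-sided Fisher's exact test with Benjamini-Hochberg adjustment over the whole table, 83 CpGs of Tet1 (41.1%), 60 of Tet2 (36.8%) and 88 of Tet3 (56.8%) were higher in TTKO cells, against 44.7% of all CpGs. The shares at Tet1 and Tet2 were a little below that of the table and the share at Tet3 above it. A level lower in TTKO cells was called at 1 CpG each of Tet1 and Tet2 and at 0 of Tet3, against 0.907% of the table.

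**Figure D1:**
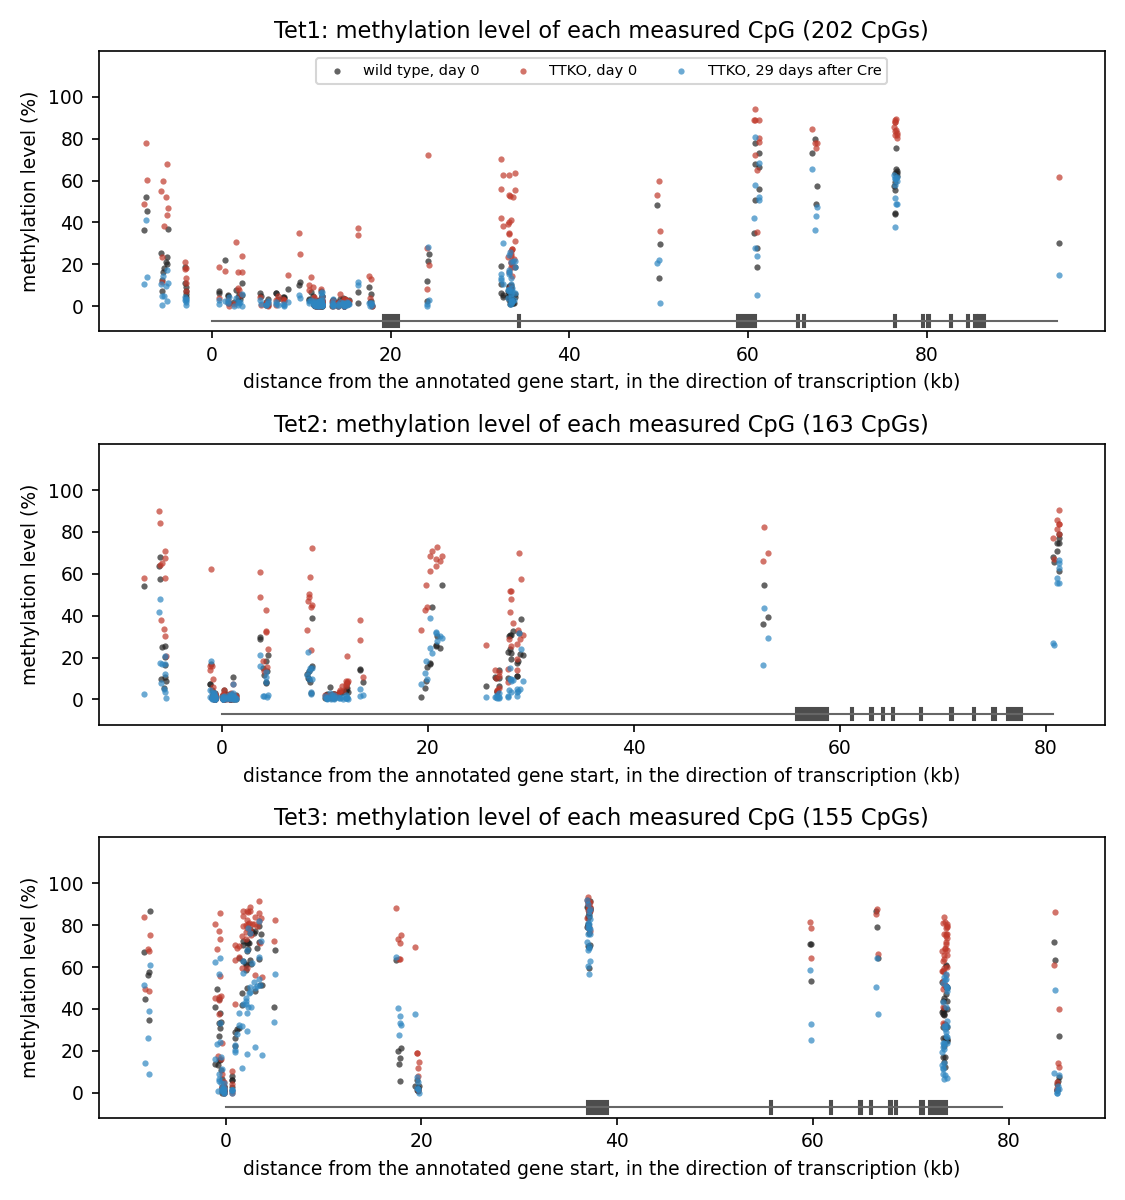
Methylation level (%) of each measured CpG against the distance from the annotated gene start (kb, positive in the direction of transcription), for wild-type cells at day 0, TTKO cells at day 0 and TTKO cells 29 days after Cre. The grey line is the gene and the blocks are coding exons. Measured CpGs lie in clusters, the coding exons of Tet2 hold none, and most CpGs within 20 kb of the Tet1 start stay near 0.

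The starting level went along with how many CpGs rose. Of CpGs under 10% in wild-type cells, 42 of 151 rose at Tet1, 19 of 96 at Tet2 and 8 of 29 at Tet3. Of those between 10% and 50%, the numbers were 24 of 32, 35 of 53 and 45 of 55. Of those at 50% or above, they were 17 of 19, 6 of 14 and 35 of 71. In the whole table these 3 classes rose in 24.3%, 80.8% and 56.6% of cases. The Tet loci lay on either side of these shares, with Tet1 above in the highest class at 89.5% and Tet2 below in all 3 at 19.8%, 66.0% and 42.9%. Only 29 of the 155 CpGs of Tet3 were under 10% in wild-type cells, against 151 of 202 at Tet1 and 96 of 163 at Tet2.

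CpGs within 1000 bases of an annotated start rose by a mean of 25.8 points at Tet1, 0.615 at Tet2 and 12.8 at Tet3. The mean changes were 25.5, -0.0545 and 3.84 points within 500 bases, and 22.6, 1.49 and 15.3 within 2000 bases. At Tet2 the mean over the 41 CpGs within 1000 bases was 1.24% in wild-type cells, 1.85% in TTKO cells and 0.998% at day 29, and 3 of the 41 rose. At Tet1 the mean over 29 CpGs was 5.22%, 31.0% and 9.79%, and 28 of the 29 rose, but 27 of the 29 lie at the internal start of the noncoding Tet1-002. Only 2 lie at the start of the gene itself, where chr10:62361093 had 7.1% and 4.1% without a call and chr10:62361141 rose from 6.4% to 18.7%. At Tet3 the mean over 30 CpGs was 14.4%, 27.3% and 11.3%, and 13 rose. Within 500 bases the Tet3 means were 4.70%, 8.54% and 3.51%, with 3 of 14 CpGs risen, so most of its rise lay farther from the starts. In coding exons, 12 of 12 CpGs of Tet1 rose, from a mean of 58.1% to 86.1%, and 26 of 48 of Tet3, from 56.4% to 74.0%. Tet2 had 0 measured CpGs in a coding exon.

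Runs of at least 5 CpGs with gaps of at most 300 bases gave 34 stretches, which held 461 of the 520 CpGs. The mean level of 17 stretches rose by at least 10 points without TET, and 7 stretches with 135 CpGs were under 5% in both lines. These 7 lay at Tet1 and Tet2, and each stretch of Tet3 was above 5% in TTKO cells. By day 29 the mean of all 34 was lower than at day 0.

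**Figure D2:**
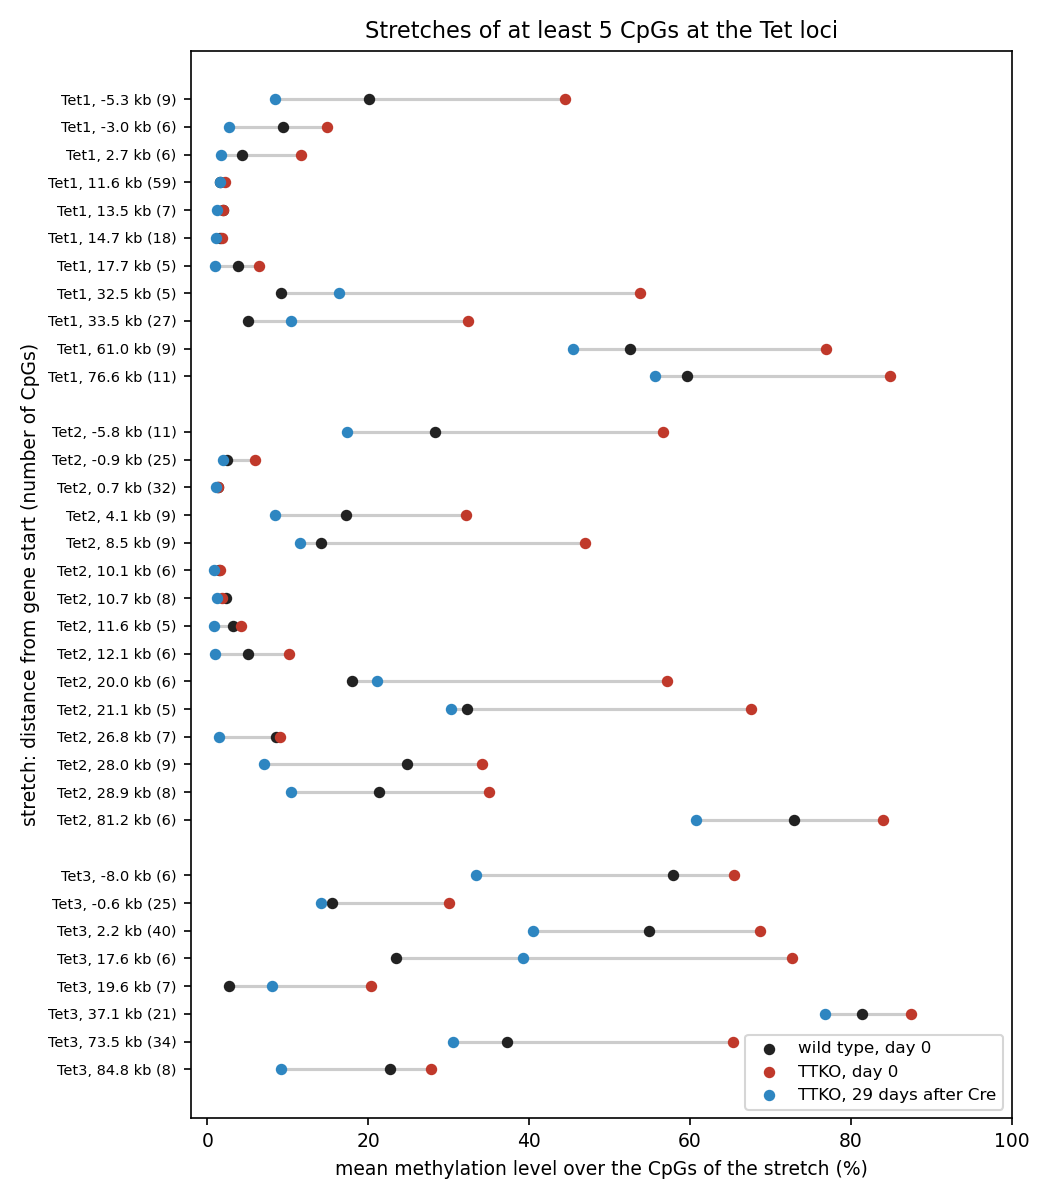
Mean methylation level (%) of each of the 34 stretches of at least 5 CpGs, named by gene, distance from the gene start and number of CpGs, in wild-type cells at day 0, TTKO cells at day 0 and TTKO cells at day 29. The TTKO day 0 point lies farthest right in most stretches, and 7 stretches stay under 5% in both lines.

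At Tet1 the contrast between neighbouring stretches was sharp. The 59 CpGs at chr10:62349537-62351066, 10.8 to 12.3 kb into the gene, had mean levels of 1.62% in wild-type and 2.13% in TTKO cells. The 27 CpGs at chr10:62327960-62328698 around the Tet1-002 start went from 5.11% to 32.4%, all 27 being called, and their single levels ran from 1.2% to 18.5% in wild-type and from 9.1% to 63.5% in TTKO cells. In the 5 CpGs next to them (chr10:62329271-62329563) the mean went from 9.20% to 53.8%. Both of these stretches thus started low and gained far more than the intron stretches nearer the gene start. At day 29 they had returned to 10.4% and 16.4%. The 11 CpGs at chr10:62285152-62285463, 8 of them in the sixth coding exon, were already at 59.6% in wild-type cells, reached 84.9% in TTKO cells and stood at 55.7% at day 29. Upstream of the gene, 9 CpGs at chr10:62366861-62367544 went from 20.1% to 44.4% and then to 8.43%. The CpG of Tet1 with the largest rise, at chr10:62329271, had 5.4% of 185 reads methylated in wild-type cells (95% Wilson interval 2.96% to 9.66%) and 62.6% of 155 reads in TTKO cells (54.7% to 69.8%). The largest fall, at chr10:62354674, was from 6.3% of 190 reads (3.65% to 10.7%) to 0.5% of 206 reads (0.0857% to 2.7%), with an adjusted p of 0.0029 in Fisher's exact test. It was the single lower call at Tet1, kept with reads scaled for over-dispersion but lost with a minimum difference of 10 points.

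At Tet2 the sequence just inside the annotated start was unmethylated in both lines. The 32 CpGs at chr3:133205986-133207312 had means of 1.31% in wild-type and 1.30% in TTKO cells, with 0 called, and the 25 CpGs just upstream (chr3:133207975-133208504) 2.48% and 5.89%, with 6 called. The levels of these 25 CpGs in TTKO cells ran from 0% to 62.3%, the highest at chr3:133208459, which had 16.8% in wild-type cells. Rises lay on both sides of the start. Farther upstream, 11 CpGs at chr3:133212821-133213432 went from 28.3% to 56.6% and to 17.4% at day 29, with 10 called higher, and outside the gene 16 of 23 CpGs rose, by a mean of 19.3 points over the 23, against 41 of 98 and 12.8 points in the introns. In the introns, the 9 CpGs at chr3:133198550-133199094 went from 14.1% to 47.0% and to 11.5% at day 29, and the 6 CpGs at chr3:133186966-133187631 from 18.0% to 57.1% and to 21.1%. All CpGs of these 2 intron stretches were called in both comparisons. Not all partly methylated intron stretches gained as much. The 7 CpGs at chr3:133180439-133180790 had means of 8.47% and 9.0%, with 0 called, yet they fell to 1.41% at day 29, with 6 called lower. The 9 CpGs at chr3:133179075-133179615 went from 24.8% to 34.1% and then to 7.09%, and included the CpG of Tet2 with the largest fall without TET, chr3:133179545, from 22.8% of 329 reads (18.6% to 27.6%) to 14.4% of 319 reads (11.0% to 18.7%, adjusted p = 0.0156 in Fisher's exact test). This was the single lower call at Tet2, and it was lost with reads scaled for over-dispersion and with a minimum difference of 10 points.

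Most measured CpGs of Tet3 carried methylation, with 29 of 155 under 10% in wild-type cells. They lay in short clusters, and most of the gene was not measured. The first coding exon was the most methylated stretch of the 3 loci, and its 21 CpGs at chr6:83354420-83354718 had means of 81.4% in wild-type cells, 87.5% in TTKO cells and 76.8% at day 29. The 34 CpGs at the other end (chr6:83317957-83318468), in the last coding exon and the exon sequence after it, gained far more, from 37.2% to 65.3%, and lost it again to 30.5%. In an intron, 6 CpGs at chr6:83373787-83374248 went from 23.4% to 72.7% and to 39.2%, the largest mean rise of any of the 34 stretches at 49.3 points. Next to them, 7 CpGs at chr6:83371899-83372317 had means of 2.74%, 20.4% and 8.01%, and their TTKO levels spread from 1.2% to 69.7%. Within this short stretch some CpGs stayed unmethylated and others became mostly methylated. One of them, chr6:83372316, had the largest rise of all 520 CpGs, from 3.3% of 60 reads (0.919% to 11.4%) to 69.7% of 109 reads (60.5% to 77.6%). Around the start, the 25 CpGs at chr6:83391801-83392801, where B230319C09Rik begins, went from 15.5% to 30.1% and to 14.1%.

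After Cre the mean levels at Tet2 and Tet3 fell at each later time point, and those at Tet1 did so after day 4. The capture had no mock-treated group, so Cre, time in culture and the move off feeders cannot be told apart in these columns. In order of time from day 0 to day 29, the means at Tet1 were 22.9%, 23.2%, 19.5%, 17.5%, 16.3%, 13.9% and 10.0%. At Tet2 they were 24.7%, 21.0%, 17.1%, 15.7%, 14.5%, 11.9% and 8.84%. At Tet3 they were 60.4%, 57.7%, 54.5%, 50.9%, 49.2%, 42.9% and 35.8%. Tet2 was above Tet1 at day 0 and below it at each later time point. By day 29, 103 CpGs of Tet1 (51.0%), 97 of Tet2 (59.5%) and 128 of Tet3 (82.6%) were lower than at day 0, against 59.3% of the table. A higher level at day 29 was called at 0 CpGs of Tet1, 1 of Tet2 and 0 of Tet3, against 0.171% of the table, and the call at Tet2 was lost with scaled reads and with a minimum difference of 10 points. Among CpGs with at least 20% at day 0, where a fall can be seen, 74 of 75 CpGs of Tet1, 67 of 68 of Tet2 and 119 of 127 of Tet3 fell, against 95.5% of such CpGs in the table. The 3 loci were therefore near the table's share once the level at day 0 was taken into account. That share is close to its ceiling and says little about the size of the fall. By size, the mean changes from day 0 were -12.9 points at Tet1, -15.8 at Tet2 and -24.7 at Tet3, against -16.3 in the table.

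**Figure D3:**
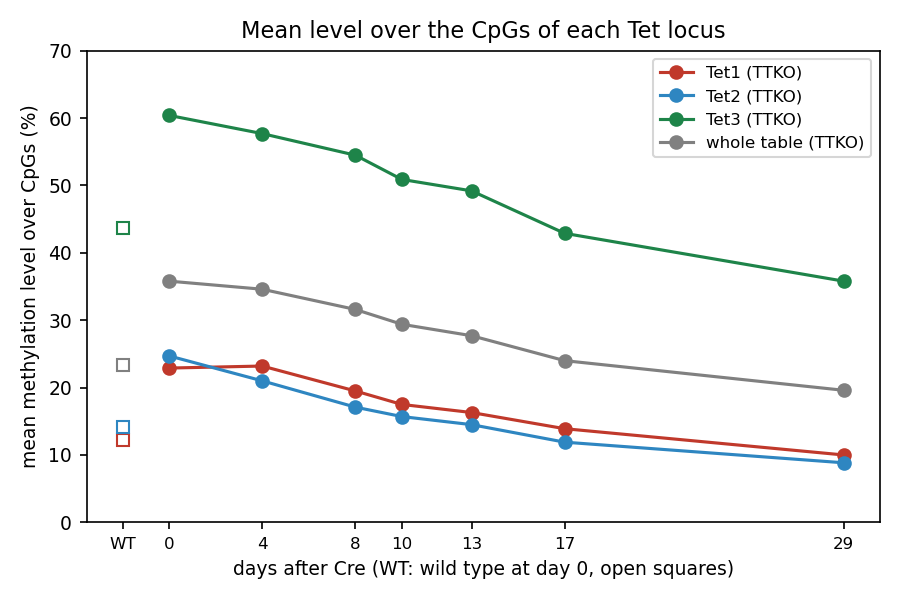
Mean methylation level (%) over the CpGs of each Tet locus and of the whole capture table against days after Cre in TTKO cells (filled circles), with wild-type cells at day 0 as open squares. Each point is a single pooled column, so no error is drawn. Tet3 lies above the table's mean at all days, Tet1 and Tet2 below it.

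How much was kept differed between stretches. Among the 21 stretches with at least 20% at day 0, the mean level at day 29 was between 19.0% and 87.7% of that at day 0. The least was kept upstream of Tet1 at chr10:62366861-62367544 and the most in the first coding exon of Tet3. In that exon the CpG at chr6:83354714 had 92.1% of 189 reads methylated at day 0 (87.3% to 95.1%) and 92.2% of 179 reads at day 29 (87.3% to 95.3%). At the other extreme, a CpG upstream of Tet2 at chr3:133214873 fell from 57.9% of 190 reads (50.8% to 64.7%) to 2.7% of 220 reads (1.26% to 5.82%), with 42.5%, 25.4%, 22.1%, 14.6% and 12.7% on the days between. That CpG had 54.0% of 226 reads methylated in wild-type cells (47.5% to 60.4%), and its difference without TET did not pass the test (adjusted p = 0.625, Fisher's exact test).

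Set against wild-type cells, TTKO cells at day 29 had lower mean levels at each locus, with differences of -2.14 points at Tet1, -5.22 at Tet2 and -7.97 at Tet3, against -3.84 in the whole table. Lower levels were called at 42 CpGs of Tet1 (20.8%), 60 of Tet2 (36.8%) and 62 of Tet3 (40%), against 27.0% of the table. The count at Tet1 was 25 with reads scaled for over-dispersion, and the counts at Tet1 and Tet2 were 24 and 36 with a minimum difference of 10 points. With at least 100 reads in every column, the mean difference at Tet1 was -1.4 points. Higher levels were called at 15 CpGs of Tet1 (7.43%), 5 of Tet2 (3.07%) and 19 of Tet3 (12.3%), against 10.2% of the table. With a minimum difference of 10 points these were 9 at Tet1 and 2 at Tet2, and with at least 100 reads in every column 10 at Tet3. In 5 of the 34 stretches the mean at day 29 was still above that in wild-type cells, and these were the Tet1-002 start and its neighbour, the Tet2 stretch at chr3:133186966-133187631 and the 2 Tet3 intron stretches named above.

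Methylation and demethylation rates were fitted to the 7 TTKO columns with the model of the study's methods, in which new methylation fades after Cre. Both rates were well determined at 70 CpGs of Tet1, 69 of Tet2 and 83 of Tet3, or 34.7%, 42.3% and 53.5% of each, against 44.8% of the table. The median demethylation rate at these CpGs was 0.0535 per day at Tet1, 0.0712 at Tet2 and 0.0332 at Tet3, against 0.0365 in the table. The median rates of new methylation were 0.0618, 0.0647 and 0.0783 per day, against 0.0712. With an error model that allows for over-dispersion, 17, 14 and 9 CpGs remained well determined, and the median demethylation rates of 0.0588, 0.0535 and 0.0535 per day no longer set Tet2 and Tet3 apart. The median rates of new methylation were then 0.0947 per day at Tet1 and Tet2 and 0.0783 at Tet3, which turned their order round. Within Tet3 the median demethylation rate was 0.0111 per day over 6 CpGs of the first coding exon and 0.0442 over 19 CpGs of the stretch at the last coding exon. This contrast was not evaluated with the over-dispersed error model, which left 9 well determined CpGs in all of Tet3. At the Tet1-002 start it was 0.0647 over 23 CpGs, with a median rate of new methylation of 0.0365 per day.

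The coverage of each CpG, as its share of the column total in TTKO cells over that in wild-type cells, was used to look for deleted exons. At 0 of the 520 CpGs was it lower by at least 2 times in every TTKO column, against 0 of the table (0%), and at 0 was it higher by as much, against 0.00390% of the table. The lowest mean log2 ratios were -0.396 at Tet1, -0.548 at Tet2 and -0.441 at Tet3. This check saw little of the coding sequence. Measured CpGs lay in 2 of 12 coding exons of Tet1, 0 of 10 of Tet2 and 2 of 9 of Tet3, and a CpG below 50 reads in a column is not in the table. A CpG lost from every allele would therefore be missing here. Loss from some alleles might not reach 2 times in every column. Deleted exons could thus have been missed, and small deletions or insertions were beyond the check. The guide sequences were not available, so the guide sites were not placed against the measured CpGs.

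What the coverage did show were steps at Tet1 and Tet3. At day 0 the log2 ratio at Tet3 was -0.17 over 8 CpGs in Bola3, past the 3′ end of Tet3, -0.32 over the 34 CpGs in and just past the last coding exon and -0.17 over 3 CpGs at chr6:83325076-83325206. It was 0.40 over the next 3 CpGs at chr6:83331837-83331965, 0.40 over the first coding exon and 0.46 over 65 CpGs around the gene start. The ratio thus changed between chr6:83325205 and chr6:83331837, an interval that holds 3 of the coding exons and no measured CpG. That interval was also the split that best divided the 3201 CpGs within 1 Mb of the window at day 0, with means of -0.15 before and 0.44 after it and 74.1% of the variance between the sides.

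**Figure D4:**
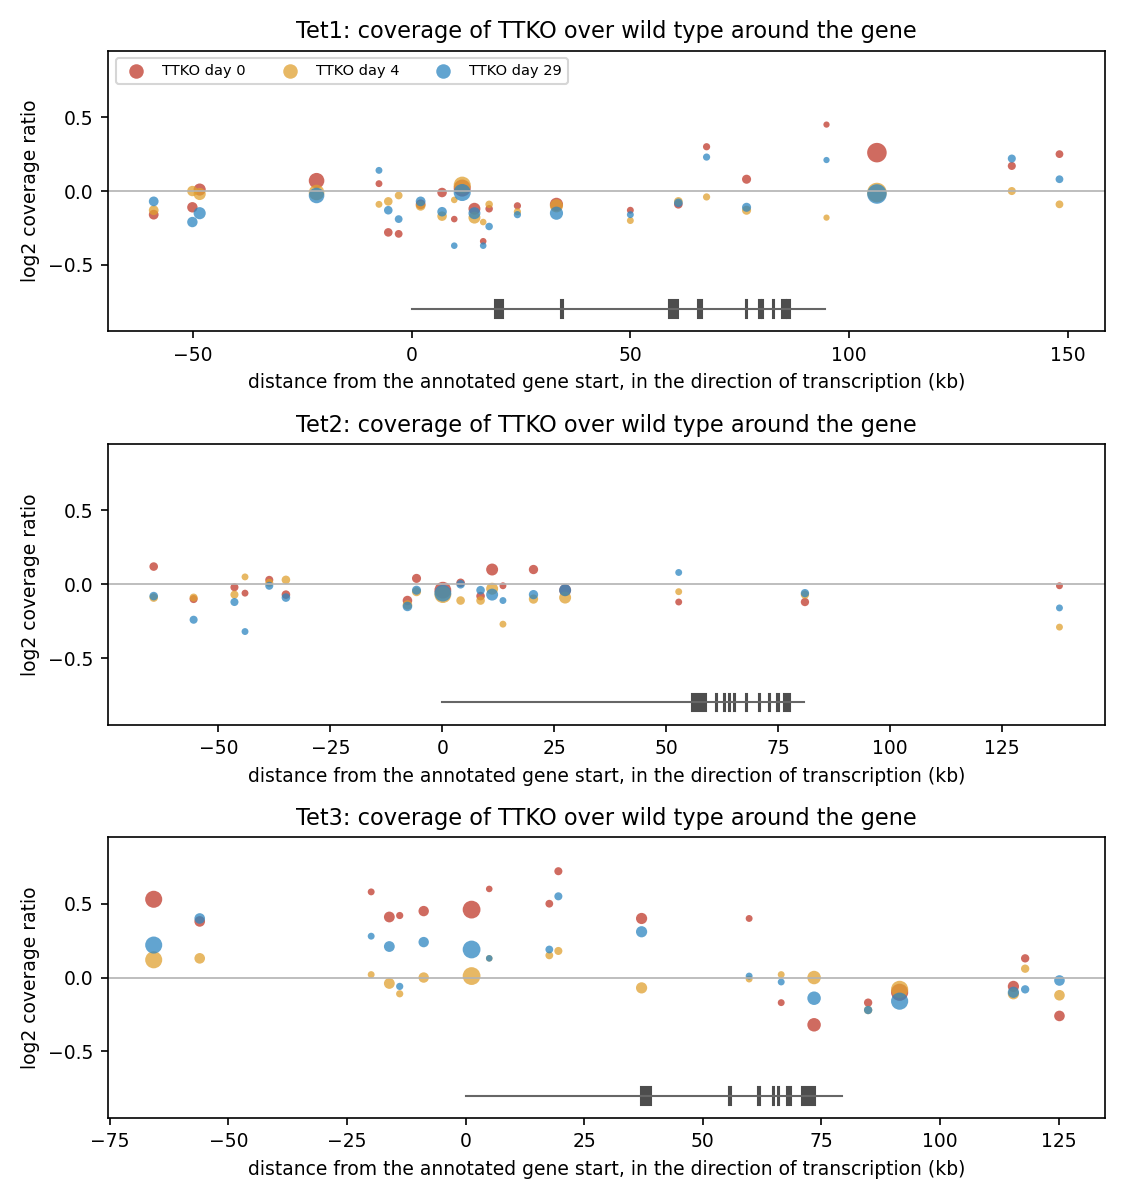
Log2 ratio of coverage in TTKO over wild-type cells, each as its share of the column total, for groups of neighbouring CpGs around each gene (larger points hold more CpGs), at day 0, day 4 and day 29, against the distance from the gene start (kb). Grey blocks are coding exons. At Tet3 the day 0 points lie near 0.4 and above on the side of the gene start and below 0 in most groups past the middle coding exons, while those of Tet2 stay near 0.

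At Tet1 the step was smaller and ran the other way along the chromosome. At day 0 the log2 ratio was 0.26 over 80 CpGs past the 3′ end of the gene (chr10:62253847-62257173), 0.08 over the 11 CpGs at chr10:62285152-62285463, 0.30 over 4 CpGs at chr10:62294150-62294747 and -0.09 over 9 CpGs at chr10:62300615-62301181. From there to the gene start, groups of CpGs lay between -0.34 and 0.02. The best split of the 3942 CpGs within 1 Mb was between chr10:62294746 and chr10:62300615, with means of 0.27 and -0.05 and 49.7% of the variance. This interval holds 2 coding exons of Tet1. At both genes the coverage was thus higher on 1 side of the interval named than on the other, and coding exons lie on both sides of it.

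The steps reached far beyond the genes. Medians over all CpGs of chromosome 10 at day 0 were 0.25 below the Tet1 window and -0.05 above it, and on chromosome 6 they were -0.05 below the Tet3 window and 0.39 above it. With 1 Mb on each side, the step from the lower to the higher coordinates was -0.32 at Tet1 and 0.59 at Tet3 at day 0. On the 6 later time points, in order, the step at Tet1 was -0.09, -0.05, -0.11, -0.15, -0.15 and -0.24. With 200 kb on each side these were -0.04, 0.14, -0.04, -0.05, -0.11 and -0.15, so the direction at day 8 turned, while the day 0 step stayed at -0.32. At Tet3, with 1 Mb on each side, the steps were 0.07, 0.11, 0.19, 0.15, 0.22 and 0.33. The lower side of Tet3 was below 0 at all days, with medians within 1 Mb between -0.17 and -0.09, and made up part of each step, while the higher side was at 0.44 at day 0, -0.03 at day 4 and 0.18 at day 29. Chromosome 6 was not even below Tet3 either, since a further step of -0.32 lay at 42.1 Mb at day 0. Both steps at the genes were largest at day 0, small at days 4 and 8 and larger again at day 29. At days 4 and 8 the best split at either gene lay outside the intervals named above and explained between 3.79% and 8.38% of the variance. At days 10, 13, 17 and 29 the best split at Tet3 lay between chr6:83331837 and chr6:83331964, just above its interval, while that at Tet1 lay at lower coordinates than the gene. Measured against the TTKO column of day 4 in place of wild-type cells, the day 0 steps were -0.23 and 0.51, so they were also seen without the wild-type column.

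**Figure D5:**
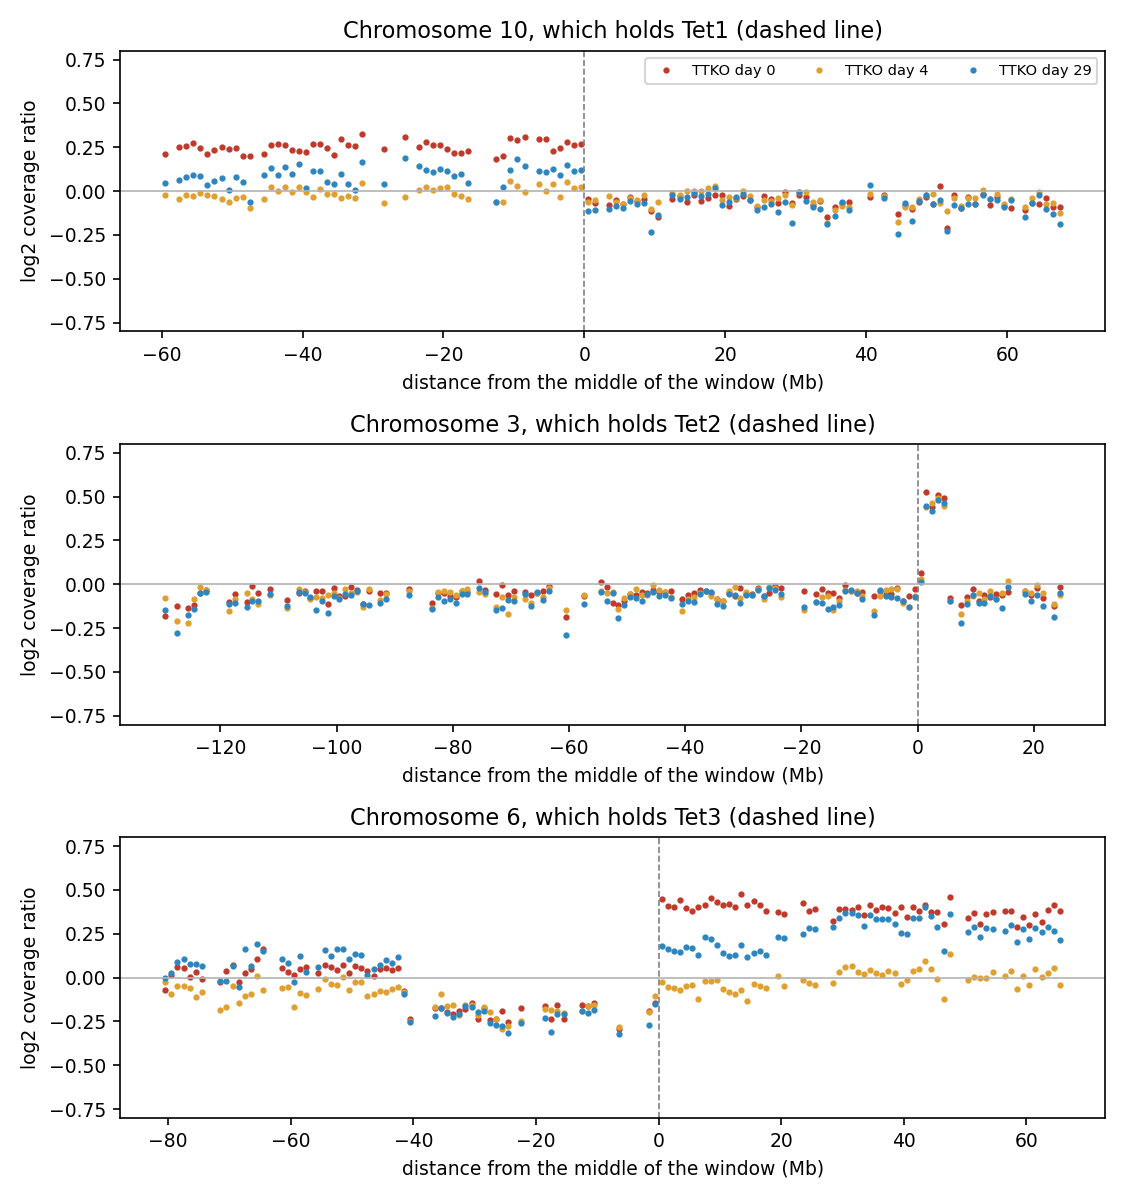
Median log2 coverage ratio of TTKO over wild-type cells in bins of 1 Mb along the chromosomes of Tet1, Tet2 and Tet3, against the distance from the middle of each window (Mb), at day 0, day 4 and day 29. At day 0 the bins lie near 0.25 on the lower side of Tet1 and near 0.4 on the upper side of Tet3, with a change of level at each gene, while a short raised segment beyond Tet2 is alike at all 3 days.

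Steps of this size were uncommon. Over the genome, 138 of 17862 positions spaced by 100 kb had a step of at least 0.2 in either direction at day 0 (0.773%), in 14 clusters, and the median size of all steps was 0.024. These had 1 Mb on each side. With 2 Mb it was 250 of 22047 positions, in 13 clusters. Neighbouring positions of a cluster are counted separately. The positions inside the Tet1 and Tet3 windows had steps of -0.32 and 0.57, and 0.638% and 0.0952% of all positions had a step at least as large. Of the 14 clusters, 3 had a day 4 step under 40% of that at day 0, a limit set after seeing the steps. These were those at Tet1, at Tet3 and a cluster of 1 position at 113.3 Mb of chromosome 10. Other clusters also varied by day. The range over days was 0.26 at Tet1, 0.49 at Tet3, 0.36 at 3.1 Mb of chromosome 11 and 0.32 at 42.1 Mb of chromosome 6. The other clusters had at most 0.21. The median of all of chromosome 11 went from 0.21 at day 0 to 0.38 at day 29. Most of the 14 clusters lay near no Tet gene, and most had a larger step than Tet1 at day 0. At Tet2 no such step was seen in the gene, where groups of CpGs lay between -0.12 and 0.10 at day 0. Past the gene start, the best split lay between chr3:133482290 and chr3:133539157, outside the window, with means of -0.03 and 0.45 at day 0. Unlike those at Tet1 and Tet3 that step was alike at day 0 and day 4, with values of 0.49 and 0.48 at 133.9 Mb. The cause of the steps was not tested, and pooled libraries cannot tell a change in all cells from one in some of them.

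Other genes of the pathway were set against the shares of the whole table given above, 44.7% higher and 0.907% lower without TET and 59.3% lower by day 29. Over each gene and 1000 bases before its start, 300 of 691 CpGs of Dnmt1, Uhrf1, Dnmt3l, Dnmt3a and Dnmt3b were higher in TTKO cells (43.4%), and 193 of 462 of the TET genes (41.8%), both near the share of the table. Dnmt3a and Dnmt3b, the floxed genes, had 154 of 257 and 47 of 91, while Dnmt1, Uhrf1 and Dnmt3l had 37 of 117, 36 of 144 and 26 of 82. Genes for the removal of oxidised bases and for repair were below it with 140 of 682 (20.5%), with Neil2, a DNA glycosylase, at 29 of 43 and Lig3, a DNA ligase, at 6 of 85, and 0 CpGs measured at Smug1. TET partners and regulators were also below it with 192 of 731 (26.3%), with 15 of 27 at Dppa3, which is expressed in the early embryo and germ line, and 5 of 89 at Cxxc4, a CXXC-domain protein. Most genes of the last 2 lists had mean levels under 10% in wild-type cells, from 1.39% at Lig3 to 24.7% at Tdg and from 2.54% at Cxxc4 to 25.4% at Vprbp, and in the table CpGs under 10% rose in 24.3% of cases. Lower levels without TET were called at 6, 4 and 4 CpGs of the 3 lists. By day 29, 372, 197 and 250 CpGs of the 3 lists had fallen, or 53.8%, 28.9% and 34.2%, against 278 of the TET genes (60.2%).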

How the data were processed

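The capture table of the authors holds read counts and levels per CpG. The authors aligned reads to mm9 with Rbowtie in QuasR, took levels with qMeth, kept CpGs with at least 50 reads and joined the replicates. Coverage is the deposited count of reads, and the level is the deposited percent of methylated reads, from which methylated reads were computed. Deposited columns of the authors' rates, confidence classes and TET activity were not used. The amplicon tables, with deposited counts and a methylated fraction per replicate, have 0 CpGs in the windows and served for the over-dispersion (0.00902).

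Columns of the table were compared per CpG over the whole table with Fisher's exact test, called at an adjusted p of 0.05 (python 3.11.15; numba 0.67.0 and numpy 2.4.6 for the tests, pandas 2.3.3 for tables, scipy 1.17.1 for gamma functions). The test takes reads as independent and was tested on simulated data, as were the rates. Rates were fitted on a grid of 80 by 80 values up to 2 per day with a binomial likelihood, 8% of alleles left unrecombined, and taken as well determined where the border probability was under 0.08 and both credible ranges under 2 on the log2 scale. CpGs named singly included those with the largest rise or fall, or with the lowest coverage ratio. They also included those with the smallest or largest loss after Cre among CpGs with at least 50% at day 0. Outside these rules, the CpGs near the start of Tet1 itself were named. So was the CpG with the highest TTKO level at day 0 in the stretch just upstream of Tet2. Stretches and position classes followed fixed distances. Positions were read on NCBIM37, where all CpGs of the 3 chromosomes matched a CG, with GENCODE M1. The loci and gene lists were chosen with earlier results of these data known, and the coverage steps after the coverage had been seen.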

Additional observations from a re-analysis of the deposited data

How the results depend on the processing

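No paired analysis was possible because the replicates of each capture column are joined and the amplicons lie outside the windows. For the same reason leaving out a replicate and the amplicon test were not run. With at least 100 reads in every column, 80 CpGs of Tet3 remained, of which 48 were higher in TTKO cells, 71 fell by day 29 and 38 ended below wild type. The mean changes were then 13.2, 12.3 and 15.7 points at Tet1, Tet2 and Tet3 without TET, -14.6, -17.9 and -23.4 by day 29, and -1.4 at Tet1 and -5.63 at Tet2 against wild type. With summed reads those of Tet2 were 11.6 and -16.8. CpGs of Tet1 below wild type at day 29 numbered 25 with reads scaled for over-dispersion, and 24 with a difference of at least 10 points, which left 36 at Tet2. Within 500 bases of a start the mean rise of Tet2 turned to -0.0545 points and that of Tet3 was 3.84. The single CpG lower in TTKO cells at Tet2 was lost with scaled reads, and those at Tet1 and Tet2 with the minimum of 10 points. The beta-binomial likelihood overstates the spread of joined reads. With it the median demethylation rate was 0.0535 per day at both Tet2 and Tet3. That of new methylation was 0.0947 at both Tet1 and Tet2. Without day 8 the demethylation rate of Tet2 was 0.0647. Steps were added after the data were seen. The day 0 step was 0.57 at Tet3 with 200 kb on each side, and with day 4 as the reference -0.23 at Tet1, 0.00 at Tet2 and 0.51 at Tet3. At Tet2 it was 0.19 with 1 Mb on each side, 0.53 with 2 Mb and 0.02 with 200 kb, since the raised segment lies beyond the gene. The 2 Mb scan found 250 of 22047 positions, against 138 of 17862 with 1 Mb. Of the main values under each alternative, 51 stayed within the limits set and 28, given here, moved. CpGs under 50 reads are not in the table, and most coding exons held no measured CpG.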
